A study of Homo sapiens with 24 samples.

Results

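The transcripts described here are those of 39 genes of the hypoxia response and of glycolysis: 16 glycolytic enzymes, 19 other targets of the hypoxia-inducible factors (HIF), and 4 genes of the HIF system itself (HIF1A, EPAS1, ARNT and VHL). They were chosen by name, with earlier results of these data known, so no test was made over the list. A gene was measured by its brightest probe over all 24 arrays, among probes that the platform annotation gives to a single gene symbol. Of 18852 genes with such a probe, 38 were members, and CA9 was not analysed here. A member was tested in a cell line when its signal exceeded a background level of 6.97 (log2) on 6 or more of that line's 12 arrays. By that rule 32 members were tested in PNT1a, 32 in LNCaP and 31 in both. All 32 members tested in PNT1a and 30 of the 32 tested in LNCaP were above the level on all 12 arrays of the line.

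RNA from 2 human prostate lines was hybridised to Illumina expression arrays, with 6 arrays named as biological replicates in each of 4 groups. PNT1a, an immortalised prostate epithelial line, carried either a stable HIP1 construct or the empty vector, with G418 at 0.8 mg/ml in the medium of both groups to select for the plasmid. The LNCaP line, which derives from prostate cancer, received HIP1 or empty vector by transient transfection and was taken on day 4. HIP1 is an endocytic adaptor protein that binds clathrin. Both lines grew in RPMI medium with serum, and the labels name no low-oxygen treatment. The sources used here do not say whether the stable PNT1a lines are clones or pools, or what share of LNCaP cells took up the plasmid.

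When oxygen is plentiful, prolyl hydroxylases such as EGLN1 mark the HIF alpha subunits, and the VHL protein then directs them to degradation. When oxygen is scarce, the alpha subunits HIF1A and EPAS1 persist, pair with ARNT and bind short DNA motifs near genes for glucose uptake, glycolysis, blood vessel growth and mitochondrial turnover. This control acts largely on HIF alpha protein, and arrays measure transcripts only.

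The promoters of 34 members were found in the RefSeq table (GRCh38.p14), each as the 250 bases before and 50 bases after the start of the gene. The core of the HIF motif was searched as ACGTG and as GCGTG on both strands. At least 1 of the 2 spellings occurred in 25 of the 34 member promoters (73.5%) and in 48.4% of the 27305 promoters of the table. ACGTG alone occurred in 15 member promoters (44.1%), against 21.6% of all. By role, 11 of 16 glycolytic promoters (68.8%) and 12 of 15 promoters of other HIF targets held either spelling. Of members called higher with HIP1 in LNCaP (below), 10 of 12 promoters held a match, and of members tested there and not called, 11 of 15. A match is a run of letters and not evidence of binding.

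The 250 bases before the start are shown for the 6 members with the largest called differences in LNCaP among those with a promoter in the table, since the LNCaP comparison carries most of the results. Letters run 5′ to 3′ along the strand of the gene, and capitals mark ACGTG or GCGTG on either strand.

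HK2, chr2:74833877-74834126, plus strand: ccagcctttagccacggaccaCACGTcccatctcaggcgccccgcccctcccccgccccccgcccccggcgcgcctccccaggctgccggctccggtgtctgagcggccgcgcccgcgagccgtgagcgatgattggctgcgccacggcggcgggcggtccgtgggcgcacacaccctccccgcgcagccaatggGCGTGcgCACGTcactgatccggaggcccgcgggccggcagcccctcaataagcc

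ENO2, chr12:6914330-6914579, plus strand: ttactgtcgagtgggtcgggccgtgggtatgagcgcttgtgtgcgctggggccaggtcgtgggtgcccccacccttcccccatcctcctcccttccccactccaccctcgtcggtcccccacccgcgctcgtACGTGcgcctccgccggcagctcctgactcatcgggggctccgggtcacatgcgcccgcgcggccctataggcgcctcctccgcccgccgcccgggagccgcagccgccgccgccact

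PFKFB4, chr3:48556804-48557053, minus strand: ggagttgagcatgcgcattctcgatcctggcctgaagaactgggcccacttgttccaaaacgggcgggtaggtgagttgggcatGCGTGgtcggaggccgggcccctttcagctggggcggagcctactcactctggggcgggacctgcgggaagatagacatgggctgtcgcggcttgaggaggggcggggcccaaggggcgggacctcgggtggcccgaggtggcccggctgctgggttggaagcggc

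P4HA1, chr10:73096867-73097116, minus strand: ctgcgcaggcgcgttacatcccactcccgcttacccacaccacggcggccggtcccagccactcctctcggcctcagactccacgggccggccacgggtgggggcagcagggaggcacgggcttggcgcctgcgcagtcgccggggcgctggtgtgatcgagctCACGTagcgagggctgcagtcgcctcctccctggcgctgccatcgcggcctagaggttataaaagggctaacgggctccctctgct

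ERO1A, chr14:52695559-52695808, minus strand: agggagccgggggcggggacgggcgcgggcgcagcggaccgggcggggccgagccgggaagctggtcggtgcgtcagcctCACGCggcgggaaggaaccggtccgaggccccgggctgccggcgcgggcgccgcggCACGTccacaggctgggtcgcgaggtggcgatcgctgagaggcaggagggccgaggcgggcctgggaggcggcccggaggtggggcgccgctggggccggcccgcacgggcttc

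ADM, chr11:10304823-10305072, plus strand: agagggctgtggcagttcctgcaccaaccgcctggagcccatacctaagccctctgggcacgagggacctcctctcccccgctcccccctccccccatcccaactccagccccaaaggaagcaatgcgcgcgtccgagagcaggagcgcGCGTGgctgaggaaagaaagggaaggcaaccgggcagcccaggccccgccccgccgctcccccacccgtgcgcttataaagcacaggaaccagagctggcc

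In these windows HK2 held 3 matches and ERO1A 2. ENO2 and P4HA1 held 1 ACGTG each, 118 and 86 bases before the start. ADM and PFKFB4 held 1 GCGTG each, 101 and 166 bases before the start.

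The HIP1 probe (ILMN_1701403) did not settle the labels. Its HIP1-labelled minus vector difference was 0.10 (log2) in PNT1a, with a 95% interval of -0.23 to 0.43 and an exact permutation p of 0.543. In LNCaP the HIP1 difference was -0.11 (exact permutation p = 0.232, both two-sided over 924 splits of 12 arrays). The groups are therefore called HIP1-labelled and vector arrays. Markers bore out the lines in part: KLK2, KLK3, TMPRSS2, FOLH1 and HOXB13, all of luminal prostate, were above the level on all 12 LNCaP arrays and on 0 to 2 PNT1a arrays. The luminal keratins KRT8 and KRT18 did not separate the lines, being above the level on 12 and 10 PNT1a arrays and on all 12 LNCaP arrays. CD44 was above it on all 12 PNT1a arrays and on 0 LNCaP arrays, while the basal keratins KRT5 and KRT14 were above it on 0 arrays of either line. The fibroblast markers COL1A1, PDGFRB, THY1 and ACTA2 and the leukocyte markers CD68 and CD14 were above it on all 12 PNT1a arrays, and ACTA2 also on all 12 LNCaP arrays. From the same lists, COL1A2, COL3A1, DCN, LUM, PTPRC, CD3E and HBB were above it on 0 PNT1a arrays and HBA2 on 6. Every array had a median of 6.56 and 12099 to 12107 probes above the level. PNT1a arrays numbered 6 stood apart, with a mean correlation of 0.95 (vector) and 0.931 (HIP1-labelled) with the other arrays of their group, against 0.976 to 0.984 for the other 10 PNT1a arrays and 0.991 to 0.994 in LNCaP.

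In LNCaP, most of the other HIF targets among the members were higher in HIP1-labelled arrays, and most glycolytic enzymes did not pass the test. Of 32 members tested, 15 were called higher and 0 lower by limma (adjusted p below 0.05, here as elsewhere adjusted over all probes tested in the comparison). Over all 12014 probes tested in LNCaP, 3.37% were called higher and 4.36% lower. Since the members were chosen with earlier results of these data known, these shares are a description and not a test of the list. At an unadjusted p below 0.05, 20 members were higher and 0 lower. The other HIF targets accounted for 11 of the 15, out of 14 tested, and the glycolytic enzymes for 4 out of 16. Within them, 9 of the 10 tested that act outside glucose use were called, with a median difference of 0.48. The median difference was 0.43 (log2) for all other HIF targets, 0.14 for glycolytic enzymes and 0.01 for all probes. The lists also differ in signal: on LNCaP vector arrays the list mean had a median of 9.10 for other HIF targets and 11.61 for glycolytic enzymes. Whether the array registers differences equally at those levels was not tested. Higher array signal in a culture can come from more cells that transcribe a gene or from more RNA in each, and these cannot be told apart here. With a spread shared over all 24 arrays, 7 of the 15 calls were lost: PFKP, ALDOC, PFKFB3 (adjusted p = 0.217), P4HA2 (0.111), VEGFA, EGLN1 (0.0762) and BNIP3L. Over all probes tested, calls of a higher level went from 405 to 70.

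**Figure D1:**
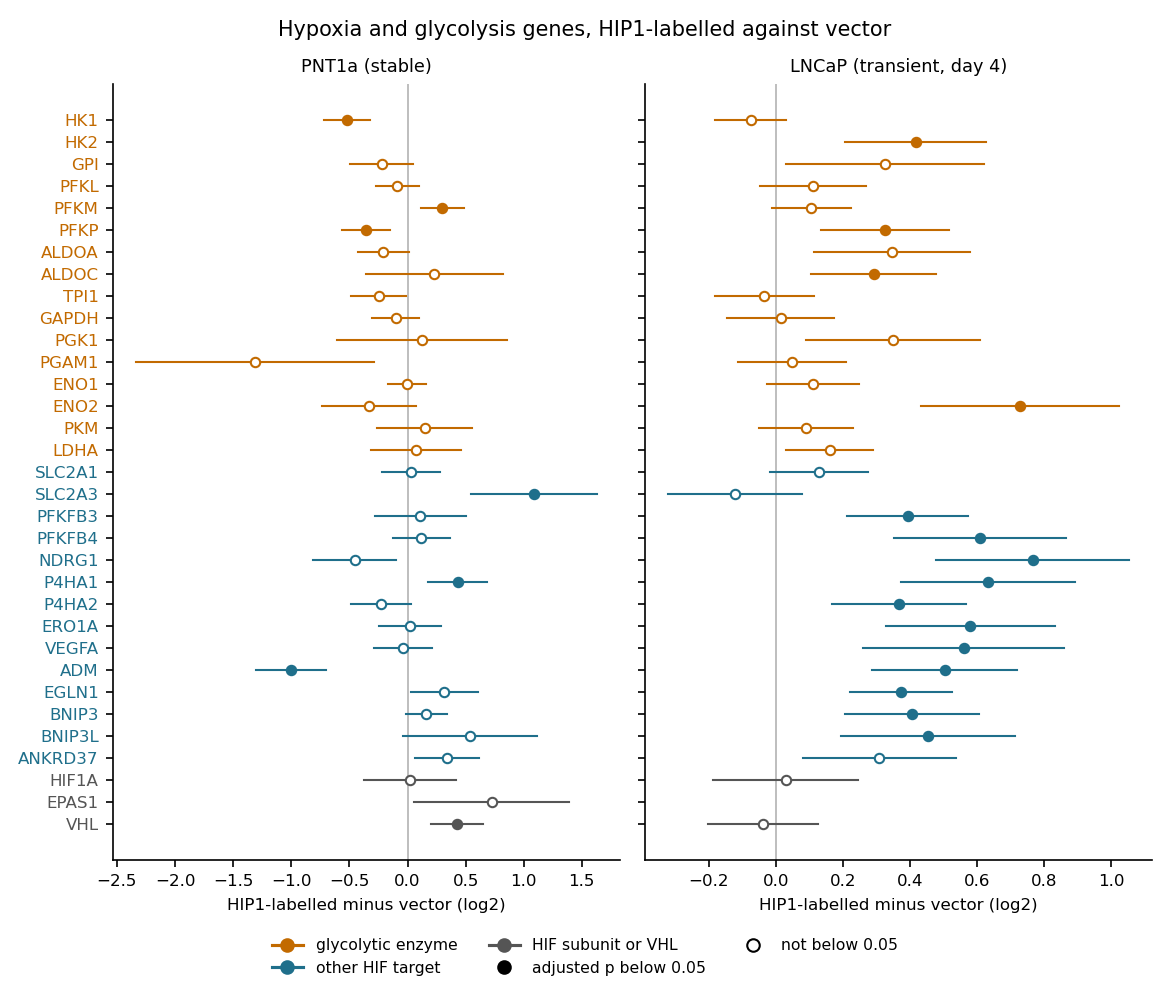
Difference between HIP1-labelled and vector arrays (log2, x axis) for each tested member in PNT1a and in LNCaP, with 95% intervals from limma over 6 arrays a group. Filled points passed an adjusted p of 0.05. In LNCaP 11 blue points (other HIF targets) are filled and lie above 0, against 4 orange points (glycolytic enzymes), and the PNT1a points lie on both sides of 0. The x axes of the panels differ.

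Among genes that act on glucose uptake and the pace of glycolysis, both PFKFB enzymes rose in LNCaP. These enzymes set the amount of a sugar phosphate that activates phosphofructokinase. PFKFB4 lay at 9.19 to 10.33 with vector (median 9.73) and at 10.15 to 10.54 in HIP1-labelled arrays (median 10.33). The difference was 0.61 (limma adjusted p = 0.00382), a fold change of 1.53. PFKFB3 went from 9.29 to 9.82 (median 9.44) up to 9.73 to 10.09 (median 9.84), a difference of 0.39 (adjusted p = 0.00636). In both, vector array 6 was the single vector array within the HIP1-labelled range. A second, dimmer PFKFB3 probe gave 0.21 and was not called (adjusted p = 0.087). Neither glucose transporter passed: SLC2A1 differed by 0.13 (adjusted p = 0.3), and SLC2A3 by -0.12 (adjusted p = 0.502), with only 7 of its 12 arrays above the background level. PDK1, the kinase that restrains entry of pyruvate into mitochondria, was above the level on 4 LNCaP and 2 PNT1a arrays and was not tested.

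NDRG1, a gene of stress response and differentiation that hypoxia induces, had the largest rise among members in LNCaP. Its vector arrays lay at 9.19 to 10.36 (median 9.56) and its HIP1-labelled arrays at 10.21 to 10.74 (median 10.39). NDRG1 thus differed by 0.77 (95% interval 0.48 to 1.05, adjusted p = 0.00144), or 1.70-fold. Vector array 6 of NDRG1, at 10.36, was the vector array inside the HIP1-labelled range, and the other 5 reached 9.84.

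Enzymes that modify secreted proteins in the endoplasmic reticulum also rose. P4HA1, a catalytic subunit of collagen prolyl hydroxylase, lay at 8.06 to 8.62 with vector (median 8.32) and at 8.52 to 9.37 in HIP1-labelled arrays (median 8.91), a difference of 0.63 (adjusted p = 0.0029). Its relative P4HA2 moved from a median of 8.74 (8.68 to 9.32) to 9.23 (8.94 to 9.38), a difference of 0.37 (adjusted p = 0.0201). ERO1A, the oxidase that drives disulfide formation there, went from 7.99 to 8.95 (median 8.44) up to 8.83 to 9.41 (median 8.98). The ERO1A difference was 0.58 (adjusted p = 0.00449). In all 3 genes, 5 of 6 vector arrays lay below every HIP1-labelled array. The P4HA2 call was lost without LNCaP vector array 5, HIP1-labelled array 2 or HIP1-labelled array 6 (adjusted p up to 0.0576), and a second P4HA2 probe gave 0.37 (adjusted p = 0.0114).

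The secreted factors VEGFA and ADM followed. VEGFA, which drives blood vessel growth, lay at 8.43 to 9.24 with vector (median 8.59) and at 8.58 to 9.67 in HIP1-labelled arrays (median 9.25). Its difference of 0.56 (adjusted p = 0.0187) came with overlapping groups: the lowest HIP1-labelled array was below the vector median. The VEGFA call was lost when any of 3 single arrays was left out (LNCaP vector 5, HIP1-labelled 2 or HIP1-labelled 6), with an adjusted p of up to 0.0621, and the other VEGFA probe tested gave 0.32 (adjusted p = 0.0876). ADM, the vasodilator peptide adrenomedullin, was at 7.72 to 8.56 with vector (median 8.17) and at 8.49 to 8.94 in HIP1-labelled arrays (median 8.63), a difference of 0.50 (adjusted p = 0.00415). Vector array 6 was again the vector array in the HIP1-labelled range for ADM.

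EGLN1, the oxygen-sensing prolyl hydroxylase that is itself a HIF target, was the one member whose 2 groups did not overlap in LNCaP. Its vector arrays ran from 7.01 to 7.41 (median 7.25) and its HIP1-labelled arrays from 7.46 to 7.68 (median 7.65). The EGLN1 difference was 0.37 (adjusted p = 0.00279). Over all probes tested in LNCaP, 1.5% lay higher without overlap and 2.54% lower, against 1 and 0 of the 32 members. EGLN3, KDM3A and ANGPTL4 were above the level on 0, 2 and 0 LNCaP arrays and were not tested.

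BNIP3 and BNIP3L, receptors on mitochondria that mark them for removal by autophagy, both rose. BNIP3 lay at 12.64 to 13.34 with vector (median 12.93) and at 13.22 to 13.64 in HIP1-labelled arrays (median 13.36), a difference of 0.41 (adjusted p = 0.011). BNIP3L lay at 9.57 to 10.66 with vector (median 9.86) and at 10.26 to 10.47 otherwise (median 10.42), a difference of 0.46 (adjusted p = 0.0278). For BNIP3L the highest of all 12 values belonged to vector array 6, and its call was lost in 7 of 12 fits that left out an array. ANKRD37, an ankyrin repeat protein, was the remaining member outside glycolysis and differed by 0.31 (adjusted p = 0.0904).

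In the glycolytic chain, 4 of 16 enzymes rose in LNCaP. ENO2, the neuronal form of enolase, changed most: its vector arrays lay at 7.89 to 9.18 (median 8.38) and its HIP1-labelled arrays at 8.92 to 9.52 (median 9.11). That is a difference of 0.73 (95% interval 0.43 to 1.02, adjusted p = 0.00274), or 1.66-fold, with vector array 6 as the vector array in the HIP1-labelled range. HK2, the inducible hexokinase, moved from 7.39 to 7.85 (median 7.66) to between 7.67 and 8.36 (median 8.05), a difference of 0.42 (adjusted p = 0.0133). Its second probe gave 0.41 (adjusted p = 0.0189).

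PFKP, the platelet form of phosphofructokinase, lay at 10.41 to 11.10 with vector (median 10.58) and at 10.82 to 11.11 in HIP1-labelled arrays (median 11.03), a difference of 0.33 (adjusted p = 0.0327). ALDOC, an aldolase, lay at 12.10 to 12.81 with vector (median 12.36) and at 12.56 to 12.88 (median 12.73), a difference of 0.29 (adjusted p = 0.0478). Both calls were fragile: leaving out 1 array ended that of PFKP in 7 of 12 fits, with adjusted p up to 0.0905, and that of ALDOC in 8 of 12, with adjusted p up to 0.128.

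The other 12 glycolytic enzymes did not pass in LNCaP. PGK1 (0.35, adjusted p = 0.091), ALDOA (0.35, adjusted p = 0.061) and GPI (0.33, adjusted p = 0.177), which carry the middle and early steps, had the largest differences among them. A second, dimmer PGK1 probe gave 0.10 (adjusted p = 0.63). LDHA, which turns pyruvate into lactate, differed by 0.16 (adjusted p = 0.123). GAPDH differed by 0.01 with an interval of -0.14 to 0.17, TPI1 by -0.03, PGAM1 by 0.05, PKM by 0.09, ENO1 by 0.11, PFKL by 0.11, PFKM by 0.11 and HK1 by -0.07. HIF1A (0.03, interval -0.19 to 0.25) and VHL (-0.04) did not pass, and ARNT and EPAS1 were above the level on 0 and 2 LNCaP arrays.

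The mean of the 14 other HIF targets minus the mean of the 16 glycolytic enzymes was taken on each LNCaP array. It lay at -2.61 to -2.39 on vector arrays (median -2.49) and at -2.33 to -2.25 on HIP1-labelled arrays (median -2.27). The groups did not overlap, vector array 6 (-2.41) included. In PNT1a, where HK2 was not tested, 15 enzymes entered, so the quantity is not quite the same. It ran from -2.71 to -2.52 on vector arrays (median -2.67) and from -2.51 to -2.19 on HIP1-labelled arrays (median -2.37), also without overlap. Single genes weigh on the PNT1a means: PGAM1, not called, differed by -1.31 and SLC2A3 by 1.09, while the fall of ADM worked the other way. How often other sets of genes would separate the groups was not tested, in either line. Only the change of such a quantity between arrays can be read, since levels of different probes are not comparable.

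**Figure D2:**
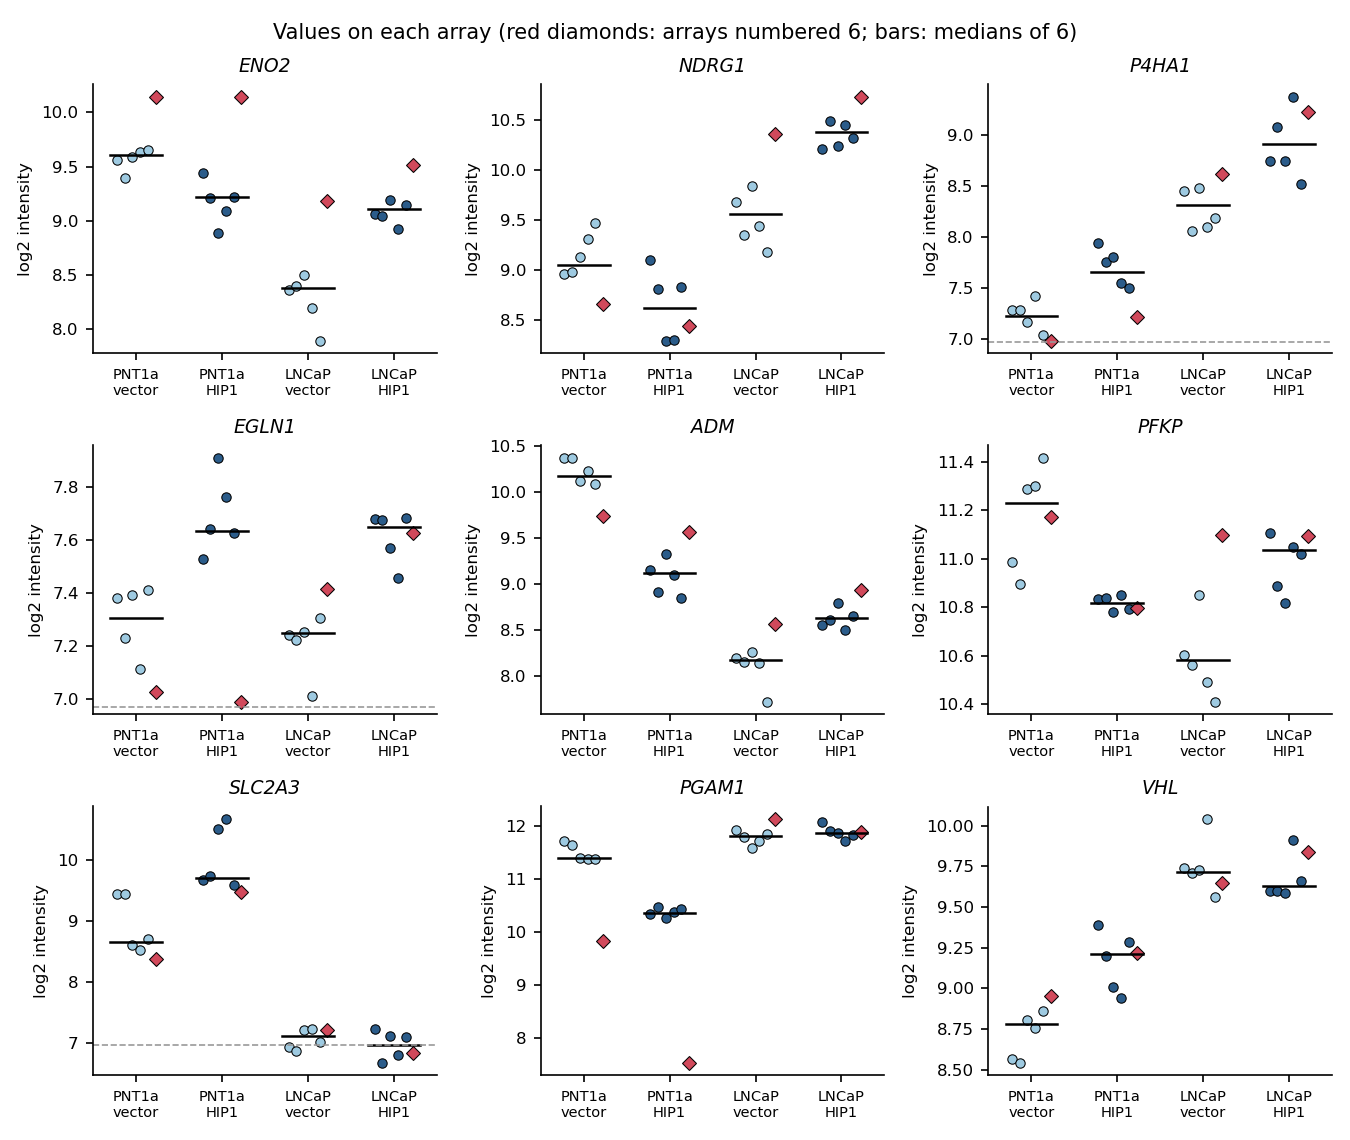
Log2 intensity (y axis) of 9 members on each of the 24 arrays, by line and group, with the median of each group as a bar, the arrays numbered 6 as red diamonds and the background level of 6.97 dashed where it falls within the axis. In LNCaP, vector array 6 sits with the HIP1-labelled arrays for ENO2, NDRG1, ADM and PFKP; in PNT1a, both arrays numbered 6 are low for PGAM1. The y axes of the panels differ.

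LNCaP vector array 6 had the highest value of the 6 vector arrays in 26 of 32 members (14 of 16 glycolytic enzymes, 12 of 14 other HIF targets). In 25 of them it also reached the lowest HIP1-labelled array. Over all probes tested in LNCaP those shares were 17.7% and 17.2%. The list means show the same array: for other HIF targets it had 9.56, against 8.87 to 9.21 on the other vector arrays and 9.45 to 9.75 on HIP1-labelled arrays. For glycolytic enzymes it had 11.97, against 11.47 to 11.68 and 11.71 to 12.01. HIP1-labelled array 6 was in turn the highest of its group in 22 of 32 members, and in 16.8% of all probes tested.

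Without vector array 6, 20 of 32 members were called higher in LNCaP, the earlier 15 among them, while 4.86% of all probes were. The added calls were ALDOA (0.45, adjusted p = 0.00451), PGK1 (0.49, adjusted p = 0.00133), GPI (0.46, adjusted p = 0.013), LDHA (0.20, adjusted p = 0.0485) and ANKRD37 (0.42, adjusted p = 0.00435). Glycolytic calls thus went from 4 to 8 of 16 and other HIF targets from 11 to 12 of 14. The medians of the lists moved from 0.14 to 0.18 and from 0.43 to 0.53. In 10 of 32 members all HIP1-labelled arrays lay above the other 5 vector arrays, 9 of them other HIF targets, where 3.05% of all probes did. Because vector array 6 was the highest of its group in 26 members, leaving it out had to raise their differences, and the added calls are no separate support. Without HIP1-labelled array 6, the highest of its group in 22 members, 10 members were called higher, beside 253 of all probes. With both LNCaP arrays numbered 6 left out, an alternative chosen after seeing the data, 19 members were called higher (7 glycolytic, 12 other), and 3.33% of all probes.

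Proliferation genes moved with the LNCaP groups, in a comparison where 3.37% of all probes were called higher and 4.36% lower. Of 20 tested, 16 fell and 0 rose (0 rose at an unadjusted p below 0.05 also), with a median of -0.50. MCM2, a subunit of the replicative helicase, fell by 0.67 (adjusted p = 5.43e-05), and TK1, thymidine kinase, by 0.66 (adjusted p = 3.96e-05). The mean of the list was 9.66 to 9.83 on vector arrays and 9.19 to 9.42 on HIP1-labelled arrays. Vector array 6 had 9.67, within the vector range, so it stood with the HIP1-labelled arrays in the HIF and glycolysis lists and not in this one. The part of culture density or cell cycling in the differences of the hypoxia genes was not tested. Luminal markers moved too: 3 of 7 tested rose and 0 fell (median 0.20), among them TMPRSS2 (0.56, adjusted p = 0.000655), an androgen-regulated protease. Of the basal and transformed epithelium markers, both that were tested rose, EGFR by 0.59 (adjusted p = 0.000974) and VIM by 0.31 (adjusted p = 0.0356). Their mean was 7.61 to 8.22 on vector arrays, highest on array 6, and 8.15 to 8.43 on HIP1-labelled arrays. The mean of the luminal list was 8.9951 to 9.1438 on vector arrays and 9.1416 to 9.329 on HIP1-labelled arrays. Of 6 leukocyte and erythroid markers, CD68 was above the level on 1 LNCaP array and PTPRC, CD14, CD3E, HBA2 and HBB on 0.

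**Figure D3:**
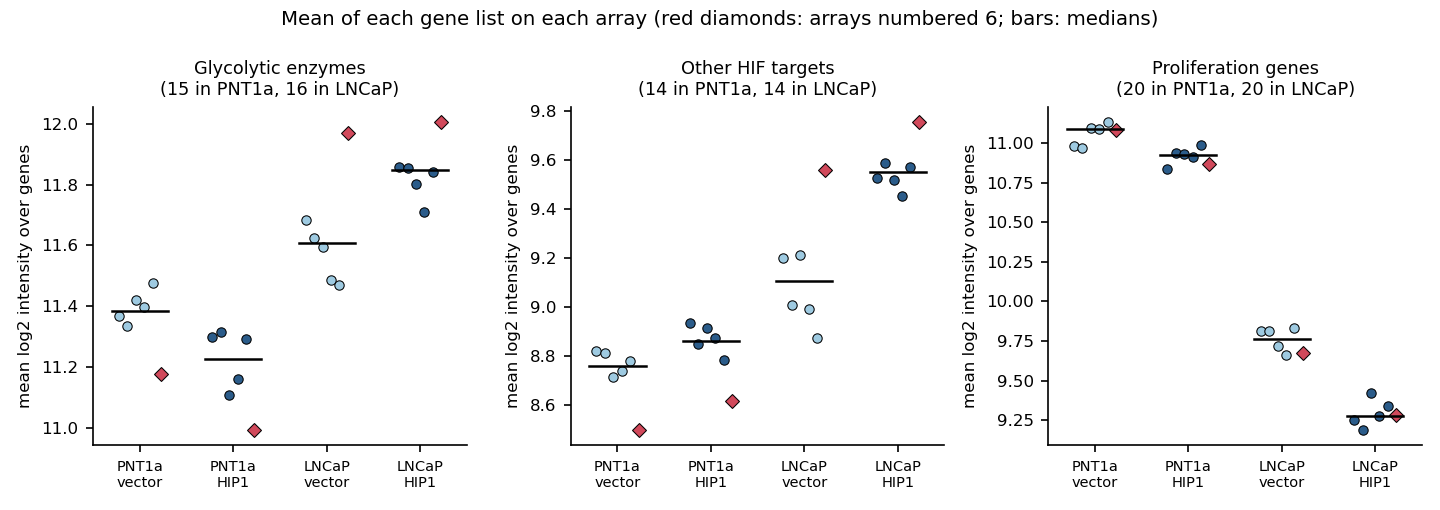
Mean log2 intensity (y axis) over the tested genes of 3 lists on each of the 24 arrays, by line and group, with medians as bars and arrays numbered 6 as red diamonds. LNCaP vector array 6 lies at 11.97 for glycolytic enzymes and 9.56 for other HIF targets, both within the HIP1-labelled range, and at 9.67 for proliferation genes, within the vector range. The y axes differ.

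Genes next to these pathways were read from further lists in LNCaP, beside 3.37% of all probes called higher and 4.36% lower. Of 18 further HIF targets tested, 3 rose and 1 fell, with a median of 0.10. INSIG2 (0.30, adjusted p = 0.0271), which restrains sterol synthesis, STC2 (0.26, adjusted p = 0.00786), a secreted glycoprotein, and PLOD1 (0.25, adjusted p = 0.0343), a collagen lysyl hydroxylase, rose. TFRC, the transferrin receptor, fell by 0.40 (adjusted p = 0.00523). Among 14 further enzymes of glucose and pyruvate, PGM1, which links glycogen to glycolysis, rose (0.28, adjusted p = 0.0244). Of 6 genes of the pentose phosphate pathway, TALDO1 (transaldolase) fell by 0.20 (adjusted p = 0.0342). Of 13 genes of the tricarboxylic acid cycle, 0 passed in either direction by limma, 0 also at an unadjusted p below 0.05. Of 9 oxygen-sensing genes and HIF cofactors, 0 passed, and 1 was lower at an unadjusted p below 0.05.

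In PNT1a, members moved in both directions. Of 32 tested, 4 were called higher (PFKM, SLC2A3, P4HA1 and VHL) and 3 lower (HK1, PFKP and ADM), in a line where 14.2% of all 12221 probes were called higher and 13.5% lower. The members' shares were thus near or below the background. Medians were -0.10 for the 15 glycolytic enzymes tested, 0.12 for the 14 other HIF targets and 0.00 for all probes. Groups did not overlap for 2 members that were higher (PFKM, SLC2A3) and 3 that were lower (HK1, PFKP, ADM), against 7.93% and 7.45% of all probes.

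Of the glycolytic enzymes, HK1, the hexokinase of most tissues, fell. Its vector arrays lay at 12.0035 to 12.30 (median 12.25) and its HIP1-labelled arrays at 11.54 to 11.94 (median 11.67), a difference of -0.52 (adjusted p = 0.00093). PFKP fell by 0.36, from 10.90 to 11.42 (median 11.23) down to 10.78 to 10.85 (median 10.82), with adjusted p = 0.013. PFKM, the muscle form of the same enzyme, rose from 8.32 to 8.65 (median 8.49) up to 8.68 to 8.93 (median 8.80), a difference of 0.30 (adjusted p = 0.0195). The muscle and platelet forms thus moved in opposite directions, and the liver form PFKL differed by -0.09 (adjusted p = 0.509).

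SLC2A3, a glucose transporter of high affinity, had the largest called rise in PNT1a. It lay at 8.38 to 9.44 with vector (median 8.66) and at 9.48 to 10.68 in HIP1-labelled arrays (median 9.70), a difference of 1.09 (adjusted p = 0.00542), or 2.13-fold. P4HA1 rose from 6.99 to 7.43 (median 7.23) to between 7.22 and 7.94 (median 7.65), a difference of 0.43 (adjusted p = 0.0154) with overlapping groups. ADM had the largest called fall: its vector arrays lay at 9.74 to 10.37 (median 10.17) and its HIP1-labelled arrays at 8.85 to 9.57 (median 9.12). ADM fell by 1.00 (adjusted p = 0.000118), a 2.01-fold difference.

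VHL, the substrate receptor of the ubiquitin ligase that degrades HIF alpha, rose from 8.54 to 8.95 (median 8.78) to between 8.94 and 9.39 (median 9.21). The VHL difference was 0.43 (adjusted p = 0.00825), and its groups overlapped between 8.94 and 8.95. HIF1A differed by 0.02 (interval -0.38 to 0.42). EPAS1 lay at 8.87 to 10.89 with vector (median 10.77) and 10.49 to 11.48 in HIP1-labelled arrays (median 11.32), a difference of 0.72 that did not pass (adjusted p = 0.102). ARNT, on 0 arrays above the level, was not tested.

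Of the PNT1a members that missed the call, several were pulled by arrays 6. PGAM1, phosphoglycerate mutase, lay at 9.84 to 11.71 with vector (median 11.38) and at 7.54 to 10.47 in HIP1-labelled arrays (median 10.36), a difference of -1.31 (adjusted p = 0.0542). The lowest value of each PGAM1 group was array 6. PGAM4, a near-identical copy whose probe may share targets with PGAM1, fell by 1.13 (adjusted p = 0.0307), and the 2 cannot be told apart with certainty. NDRG1 differed by -0.46 (adjusted p = 0.0565). PGK1, BNIP3L and EPAS1 were also lowest on array 6 in both groups, whereas ENO2 and PKM were highest there. By its brightest probe PGK1 differed by 0.13 (adjusted p = 0.839), but a second, dimmer PGK1 probe was called higher (0.27, adjusted p = 0.0383).

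Without both PNT1a arrays numbered 6, 8 members were called higher and 6 lower, among 23.5% and 21.7% of all probes. The added rises were EPAS1 (0.54, adjusted p = 4.08e-05), BNIP3L (0.59, adjusted p = 0.000346), EGLN1 (0.39, adjusted p = 0.00185) and PGK1 (0.31, adjusted p = 0.00866). The added falls were PGAM1 (-1.12, adjusted p = 5.12e-08), ENO2 (-0.40, adjusted p = 0.00377) and NDRG1 (-0.50, adjusted p = 0.0128).

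The remaining members did not pass in PNT1a with all 12 arrays. Their differences were -0.25 for TPI1, -0.22 for GPI, -0.21 for ALDOA, -0.10 for GAPDH, -0.00483 for ENO1, 0.07 for LDHA and 0.23 for ALDOC among enzymes. SLC2A1 differed by 0.03, PFKFB3 by 0.11, PFKFB4 by 0.12, P4HA2 by -0.23, ERO1A by 0.02, VEGFA by -0.04, EGLN1 by 0.32, BNIP3 by 0.16 and ANKRD37 by 0.34. HK2 was above the level on 4 PNT1a arrays, EGLN3, KDM3A and ANGPTL4 on 0, 0 and 3.

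The counts in further lists in PNT1a stand beside 14.2% of all probes called higher and 13.5% lower, and most rest on few genes. Among 19 further HIF targets tested in PNT1a, 6 rose and 3 fell, with a median of 0.12. DDIT4, which restrains mTOR under stress, rose by 2.22 (adjusted p = 6.12e-05), PLOD2, a collagen lysyl hydroxylase, by 1.01 (adjusted p = 0.000109) and IGFBP3, which binds insulin-like growth factors, by 0.77 (adjusted p = 0.00351). LOX, which cross-links collagen, fell by 0.82 (adjusted p = 9.05e-05). PDK3, a pyruvate dehydrogenase kinase, rose by 1.34 (adjusted p = 2.22e-06), and the pyruvate carrier subunit MPC1 fell by 0.68 (adjusted p = 0.0023), among 1 rise and 3 falls in 14 glucose and pyruvate genes. In the tricarboxylic acid cycle 3 of 13 fell and 0 rose by limma (1 was higher at an unadjusted p below 0.05). They were OGDH (-0.78, adjusted p = 0.0239), CS, citrate synthase (-0.66, adjusted p = 0.000983), and MDH2 (-0.38, adjusted p = 0.00211). HIF1AN, the asparaginyl hydroxylase that blocks HIF activity, fell by 0.90 (adjusted p = 0.00338), and ARNT2 rose by 0.35 (adjusted p = 0.0463), the 2 calls among 9 oxygen-sensing genes. In the pentose phosphate pathway TKT (transketolase) rose by 0.53, PGD fell by 0.50 and TALDO1 fell by 0.35 (adjusted p = 0.029, 0.041 and 0.00535). Of 20 proliferation genes 3 fell, and the mean of that list was 10.97 to 11.13 with vector and 10.84 to 10.99 otherwise. Cell type markers moved with the PNT1a groups. Of 5 basal and transformed epithelium markers tested, KRT15 (0.75, adjusted p = 0.000136), ITGB4 (0.62, adjusted p = 0.0251) and EGFR (0.38, adjusted p = 0.0258) rose and VIM (-0.83, adjusted p = 9.88e-05) fell, and their mean was 9.31 to 9.5048 with vector and 9.5065 to 9.76 otherwise. KRT15 lay at 6.46 to 7.62 and was above the level on only 6 PNT1a arrays, so its difference is set in part by the background. Of 2 luminal markers tested, KRT8 fell by 0.78 (adjusted p = 0.0277). Of 4 fibroblast markers tested, ACTA2 and THY1 fell by 1.28 and 1.03 (adjusted p = 3.79e-07 and 4.78e-05), and the mean of the list was 9.71 to 10.11 with vector and 9.13 to 9.65 otherwise. COL1A2, COL3A1, DCN and LUM were above the level on 0 arrays. Of 3 leukocyte and erythroid markers tested, CD68 and HBA2 fell by 0.72 and 0.58, and CD14 differed by 0.53 and was not called. The mean of that list was 8.62 to 9.30 with vector and 8.34 to 9.09 otherwise. HBA2 was above the level on only 6 PNT1a arrays, and PTPRC, CD3E and HBB on 0. The part of these shifts in the members' differences was not tested.

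Set side by side, P4HA1 was called higher in both lines. PFKP and ADM were called lower in PNT1a and higher in LNCaP. Another 11 members were higher in LNCaP and not called in PNT1a, and 1 (HK2) was higher in LNCaP and not tested in PNT1a. PFKM, SLC2A3 and VHL were called higher and HK1 lower in PNT1a, and these 4 were not called in LNCaP. For PFKM the difference between the effects did not pass (-0.19, adjusted p = 0.149).

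The difference between the 2 effects was tested itself, as the LNCaP effect minus the PNT1a effect over all 24 arrays. Of 33 members tested, 10 were called higher and 2 lower, against 10.4% and 11.4% of all 13936 probes. ADM differed most, by 1.51 (95% interval 1.13 to 1.89, adjusted p = 9.65e-07). NDRG1 followed with 1.22 (adjusted p = 0.000527) and ENO2 with 1.06 (adjusted p = 0.00418). HK2 gave 0.71 (adjusted p = 0.000409), a fitted value, since its PNT1a HIP1-labelled arrays (6.46 to 6.85) were all below the background level. PFKP gave 0.69 (adjusted p = 0.000845), and P4HA2 0.60 (adjusted p = 0.00896).

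HK1 (0.45, adjusted p = 0.00166) and ALDOA (0.56, adjusted p = 0.02) also differed between lines, the latter not when the probes of the gene were averaged (adjusted p = 0.199). ERO1A (0.56, adjusted p = 0.0372) and VEGFA (0.60, adjusted p = 0.0461) were close to the threshold, and their calls were lost in 11 and 17 of 24 fits that left out an array, with adjusted p up to 0.0739 and 0.0892. SLC2A3 (-1.21, adjusted p = 0.00233) and VHL (-0.47, adjusted p = 0.0133) went the other way. The VHL call was lost when its probes were averaged (-0.19, adjusted p = 0.172) and with no filter on dim probes. For SLC2A3 the LNCaP arrays lay around the background level, at 6.68 to 7.24, so its LNCaP effect could hardly be measured. The difference between lines for P4HA1 was 0.20 with an interval of -0.20 to 0.60, and for EGLN1 0.06 (-0.26 to 0.37). PGAM1 gave 1.36 (adjusted p = 0.0536). Of the further HIF targets, DDIT4 (-2.43, adjusted p = 1.55e-06), TFRC (-1.10, adjusted p = 0.00073), STC2 (1.03, adjusted p = 0.00115) and LOX (0.85, adjusted p = 0.000156) differed most between the lines. The lines also differ in how HIP1 was delivered, stably or transiently, and line and delivery cannot be told apart.

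**Figure D4:**
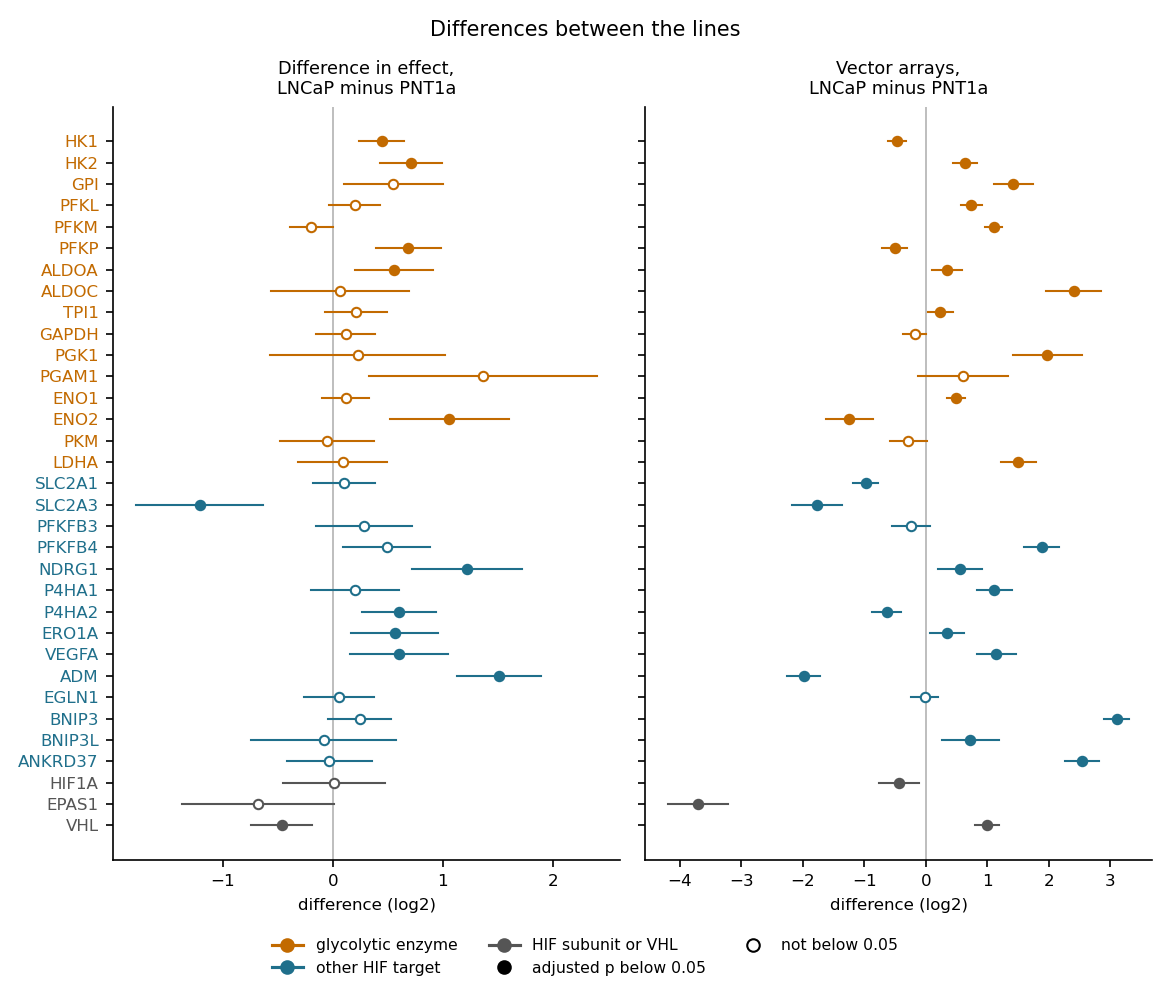
Differences between the lines (log2, x axis) for each member, with 95% intervals from limma over all 24 arrays: the LNCaP effect of HIP1 minus the PNT1a effect (left), and LNCaP vector minus PNT1a vector arrays (right). Filled points passed an adjusted p of 0.05; ADM lies at 1.51 on the left and -1.98 on the right, and BNIP3 at 3.10 on the right. The x axes differ.

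The vector arrays of the lines were compared next. They also differ in plasmid delivery and in G418, which cannot be told apart from the line. Of 33 members, 19 were higher and 9 lower in LNCaP, against 39.3% and 36.5% of all 13936 probes, so a high count was common to probes at large. Among members higher in LNCaP, BNIP3 differed most, with 12.64 to 13.34 in LNCaP and 9.76 to 10.10 in PNT1a, a difference of 3.10 (adjusted p = 5.73e-20). ANKRD37 (2.54, adjusted p = 2.7e-15) and PFKFB4 (1.88, adjusted p = 2.18e-12) followed among other HIF targets, then VEGFA (1.15), P4HA1 (1.12), BNIP3L (0.72), NDRG1 (0.56) and ERO1A (0.34). The ERO1A call was lost without PNT1a vector array 3, LNCaP vector array 1 or LNCaP vector array 6 (adjusted p up to 0.0978).

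Of the glycolytic enzymes 10 were higher in LNCaP. ALDOC lay at 12.10 to 12.81 in LNCaP and at 8.64 to 10.61 in PNT1a, a difference of 2.40 (adjusted p = 1.57e-10). PGK1 (1.98), GPI (1.42), PFKM (1.10), PFKL (0.74), HK2 (0.63), ENO1 (0.49), ALDOA (0.34), TPI1 (0.24) and LDHA (2.83-fold) were also higher, with adjusted p from 5.09e-14 to 0.03. HK2 was above the background level on 4 of 6 PNT1a vector arrays, so its difference is set in part by the background. The TPI1 call was lost in 5 of 24 fits that left out an array (PNT1a vector 1, 2 or 5, LNCaP vector 2 or 6) and in 4 other settings (adjusted p up to 0.113). The ALDOA call was lost without LNCaP vector array 6 (adjusted p = 0.0508) and with averaged probes (adjusted p = 0.294). ENO2 (-1.24), PFKP (-0.51) and HK1 (-0.47) were lower in LNCaP, with adjusted p from 1.11e-06 to 6.92e-05. GAPDH, PKM and PGAM1 were not called (-0.18, -0.29 and 0.60).

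EPAS1 was at least 11.4-fold lower in LNCaP vector arrays, where it lay below the background level at 6.64 to 6.90, against 8.87 to 10.89 in PNT1a (adjusted p = 1.89e-13). The bound sets the LNCaP mean at the level. ADM (-1.98, adjusted p = 3.69e-13), SLC2A3 (-1.77), SLC2A1 (-0.98), P4HA2 (-0.63) and HIF1A (-0.44, adjusted p = 0.0153) were lower in LNCaP as well, and VHL was higher (0.99, adjusted p = 5.59e-10). The HIF1A call was lost without LNCaP vector array 3 (adjusted p = 0.0505). It was also lost without LNCaP vector arrays 3 and 4 and HIP1-labelled array 4 (adjusted p = 0.161). HIF1A lay near the background level on LNCaP vector arrays, at 6.85 to 7.58. EGLN1 (-0.02) and PFKFB3 (-0.24) were not called. Each kind of line is represented by 1 line, so these arrays are replicates of a line and not of a tissue state.

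Within groups, members varied more than other probes in LNCaP vector arrays, with a median SD of 0.24 over the 32 members against 0.13 over all 12014 probes. The corresponding values were 0.14 and 0.12 in LNCaP HIP1-labelled arrays. In PNT1a they were 0.19 and 0.19 with vector, and 0.26 and 0.21 in HIP1-labelled arrays.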

How the data were processed

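Total RNA of 24 samples was labelled with biotin and hybridised to Illumina arrays, per the labels' protocols. The deposited value table holds log2 intensities of 48803 probes. Its sorted columns differ by at most 0.052, so the arrays share 1 distribution. The sources used here name no software, normalization or background correction. A deposited table of raw intensity gave only the scale: of 24 columns of values, 6 could be tied to a labelled sample and 18 were left aside, and no detection p was filled in. With 6 arrays a group, precision is limited by the number of arrays.

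The background level of 6.97 was the mode of all values (6.48) plus 3 SDs of the values under it (0.163). Of the probes, 28098 carry a single gene symbol, 13 several and 20692 none. limma (3.58.1, R 4.3.3) with a trended eBayes fitted each line alone for HIP1-labelled against vector arrays, because the spread within groups was wider in PNT1a, and all 24 arrays for contrasts between lines. There was no covariate. p-values were two-sided and adjusted by Benjamini-Hochberg over all probes tested in a contrast (12221, 12014 and 13936), with calls at 0.05. The fits were tested on simulated data. Replicate numbers did not pair the arrays throughout: residuals of same-numbered arrays correlated at -0.04 to 0.70 in PNT1a and -0.24 to 0.32 in LNCaP. The arrays numbered 6 in PNT1a correlated at 0.70, against at most -0.23 for that vector array with other numbers. Those numbered 4 in LNCaP correlated at 0.32, against at most -0.04. For most other numbers, an array of another number correlated as well or better. Replicates are called biological in the design text, which does not say that they were separate cultures, so p-values cover the spread between these arrays only.

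All 39 members were named; each further list gave up to 4 called genes with the largest differences per contrast. Members and lists were chosen with earlier results of these data known. Alternatives changed the spread, the filter, the normalization, the probe, the trend, the replicate block and the arrays used.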

Additional observations from a re-analysis of the deposited data

Results flagged for a closer look

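In groups of 6 arrays, a gap between the outermost array and its neighbour that is large for the range of the group was found in 18 of 128 combinations of member and group; chance alone marks about 1 in 20 groups. Most were PNT1a arrays numbered 6, the arrays that correlate least with their group. Vector array 6 was lowest for ALDOC (8.64), PGK1 (9.68), PGAM1 (9.84), PFKFB3 (9.42), BNIP3L (8.34) and EPAS1 (8.87), and highest for ENO2 (10.15). HIP1-labelled array 6 was lowest for PGK1 (8.88), PGAM1 (7.54), P4HA2 (8.78), BNIP3L (8.61) and EPAS1 (10.49), and highest for PKM (12.26). PNT1a vector array 2 was highest for BNIP3 (10.10). In LNCaP, vector array 6 was highest for P4HA2 (9.32), vector array 4 for VHL (10.04) and HIP1-labelled array 6 for ERO1A (9.41), and HIP1-labelled array 4 was lowest for PGK1 (12.51). What sets these arrays apart was not tested.

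The effect of HIP1 differed between the lines, by the test of the difference itself, for 12 members. As LNCaP effect minus PNT1a effect, the values were 1.51 for ADM, 1.22 for NDRG1, 1.06 for ENO2, 0.71 for HK2, 0.69 for PFKP, 0.60 for VEGFA, 0.60 for P4HA2, 0.56 for ERO1A, 0.56 for ALDOA and 0.45 for HK1, and -1.21 for SLC2A3 and -0.47 for VHL. For HK2 all PNT1a HIP1-labelled arrays lay below the background level, so its effect in PNT1a was not measured and 0.71 is a fitted value only. In LNCaP, SLC2A3 lay around that level.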

How the results depend on the processing

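Under the alternatives run, no called member changed direction. Single called members kept their call in 1742 refits and lost it in 95. These totals pool all contrasts, and leaving out a HIP1-labelled array cannot change a difference between vector arrays. They therefore do not measure how firm the LNCaP calls are. With the replicate block, PNT1a gave 7 members higher and 6 lower (glycolytic enzymes 4 lower, other HIF targets 4 higher and 2 lower). In LNCaP the block gave 18 higher, and in the difference between lines 13 higher and 3 lower. The calls that the block added in LNCaP were ALDOA (limma adjusted p = 0.00214), PGK1 (0.0184) and ANKRD37 (0.0358). Same-numbered arrays were clearly more alike than others for number 6 in PNT1a and number 4 in LNCaP. For most other numbers they were not, and no more is read from the block. A spread shared over 24 arrays also gave 7 members higher and 6 lower in PNT1a, beside 2391 and 2214 of all probes. There, 4 glycolytic enzymes were lower, and of other HIF targets 4 were higher and 2 lower. In LNCaP the shared spread gave 8 members higher (2 glycolytic, 6 other), beside 70 of all probes. Without both PNT1a arrays numbered 6 there were 8 higher and 6 lower (glycolytic 2 and 4, other 4 and 2). With no filter on dim probes, 0 glycolytic enzymes were higher in PNT1a and 2 in LNCaP, where more probes are tested. Of all 48803 probes, 1475 were higher in PNT1a and 222 in LNCaP in that setting. Averaging the probes of a gene left 1 member lower in the difference between lines. Without both LNCaP arrays numbered 6, chosen after seeing the data, 7 glycolytic enzymes were higher. Leaving out 1 array gave 2 to 8 glycolytic enzymes higher in LNCaP (2 without vector array 1, 2, 4 or 5 or HIP1-labelled array 1, 5 or 6, and 8 without vector array 6) and 10 to 20 members; the 20 came without vector array 6 and the 10 without vector array 5 or HIP1-labelled array 6. In PNT1a it gave 4 to 9 members higher and 3 to 5 lower, glycolytic enzymes 1 to 2 higher and 2 to 4 lower, and other HIF targets 2 to 5 higher and 1 to 2 lower; these highest counts came without HIP1-labelled array 6, the 5 also without vector array 6, except the 2 other HIF targets lower, which came without vector array 6 or HIP1-labelled array 1. Medians kept their sign in all these fits. Over all probes tested in LNCaP, 584 were higher without vector array 6, 259 without vector array 5 and 253 without HIP1-labelled array 6. Over all probes tested in PNT1a, 2469 were higher and 2217 lower without HIP1-labelled array 6, and 1743 were lower without vector array 6. Correcting the background of raw intensities was not run, since too few raw columns match the labels. The cause of the other changes was not tested. Dim members (EGLN1, SLC2A3 in LNCaP, HK2 and P4HA1 in PNT1a) lie near background, where the array understates differences. Whether differences are also understated at high signal was not tested.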
